A study of Mus musculus with 9 samples.

Results

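The genes described here are 10 mouse genes of antigen presentation on major histocompatibility complex (MHC) class I: the heavy chains H2-K1 and H2-D1, their light chain B2m, the peptide-loading genes Tap1, Tap2 and Tapbp, the immunoproteasome subunits Psmb8, Psmb9 and Psmb10, and the transactivator Nlrc5. They were chosen by symbol and not by a cutoff on their measured values, though earlier results of these data were known. Each was read from its RefSeq entry with the highest summed level in the pair of WT and labelled Aire-KO libraries. All 10 were found, among 23003 genes with a symbol and 30794 RefSeq entries, and all 10 passed every filter on low values used below.

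Almost every nucleated cell shows peptides cut from its own proteins on class I molecules, where CD8+ T cells read them. The proteasome cuts the proteins, and interferon swaps its constitutive catalytic subunits for those of the immunoproteasome. The transporter Tap1-Tap2 carries the peptides into the endoplasmic reticulum, and tapasin, the product of Tapbp, holds the empty heavy chain with B2m beside the transporter until a peptide is bound. Nlrc5 acts in the nucleus and drives these genes through a conserved promoter module, as its relative Ciita does for class II. In the thymus, medullary thymic epithelial cells (mTEC) show self-peptides on class I and class II to developing T cells, and Aire, a transcriptional regulator of the mature mTEC, makes them transcribe many tissue-restricted genes.

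RNA was sequenced in 9 libraries of mTEC sorted from 4-wk-old B6 mice, each made from pooled thymi, with 1 library in each of 9 groups. One library is labelled Aire-KO (Aire-/-) and holds mTEC with high MHC class II (mTEChi). It is paired with mTEChi of WT mice, and a further pair holds mTEChi and mTEC with low MHC class II (mTEClo) of the same WT mice. The other 5 libraries are WT mTEChi cultured with 1 uM actinomycin D, a blocker of transcription, for 0, 1.5, 3, 6 and 12 h. All 5 untreated libraries used a non-directional TruSeq kit, whereas the 4 treated ones used SMARTer amplification and Nextera. Between treated cells and 0 h, treatment therefore cannot be told apart from kit. The gate took cells without CD45, with low Ly51 and by I-A/E, with no epithelial marker, and class II was itself the sorting criterion between mTEChi and mTEClo.

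Depth was 74161592 to 195444567 reads in the 5 untreated libraries and was lower with each time of treatment, at 21124165, 13953047, 11295960 and 1746825 reads at 1.5, 3, 6 and 12 h. By count over the whole gene, Aire was not lower in the library labelled Aire-KO. Aire stood at 661 CPM (reads of 1000000 counted in the library) in the library labelled Aire-KO, versus 259 CPM in its WT partner, and a count over the whole gene cannot show which exons are missing. Among the epithelial markers, the keratin Krt8 lay between 1340 and 2090 CPM in the 5 untreated libraries, but Krt5 was at 647 CPM in mTEChi, against 4010 CPM in mTEClo, and Krt14 at 314 CPM in mTEChi, against 1580 CPM in mTEClo. The mature-cell marker Cd80 was at 126 CPM in mTEChi, against 9.20 CPM in mTEClo. Markers of other cells were present and differed between the libraries compared. For 15 dendritic and macrophage markers the sum was 361 CPM in the library labelled Aire-KO, versus 725 CPM in WT, and 586 CPM in mTEChi, against 107 CPM in mTEClo. Most of it was Lyz2, and the other 14, a split made after the values were seen, summed to 24.6 CPM in the library labelled Aire-KO, versus 151 CPM in WT, and to 122 CPM in mTEChi, against 56.7 CPM in mTEClo. For 8 endothelial markers it was 26.7 CPM in the library labelled Aire-KO, versus 78.1 CPM in WT, and 57.2 CPM in mTEChi, against 337 CPM in mTEClo. For 9 fibroblast markers it was 219 CPM in the library labelled Aire-KO, versus 152 CPM in WT, and 171 CPM in mTEChi, against 980 CPM in mTEClo. Among these markers only Fcgr1 and Cd209a were at 0 reads in an untreated library, both in the one labelled Aire-KO. Those cells carry class I as well, and their part in the values below was not tested. Bulk RNA cannot tell fewer cells of a type from less RNA per cell.

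In the annotation of the build used for counting (NCBIM37, mm9), 7 of the 10 genes lie on chromosome 17, in the MHC. Psmb9 (34318932 to 34324709, minus strand), Tap1 (34324498 to 34334170, plus), Psmb8 (34334666 to 34338399, plus) and Tap2 (34340472 to 34353266, plus) stand side by side within 34.3 kb. H2-K1 (34132962 to 34137278, minus) and Tapbp (34052844 to 34066235, plus) lie on one side of this block and H2-D1 (35399675 to 35404444, plus) on the other. B2m is on chromosome 2 (121973422 to 121978819, plus), and Psmb10 (108459628 to 108462292, minus) and Nlrc5 (96996663 to 97051172, plus) are on chromosome 8. Some reads could belong to more than 1 of these genes, because counting did not use strand. Tap1 and Psmb9 share 212 exonic bases on opposite strands, 3.87% of those of Tap1 and 5.79% of those of Psmb9, and 14.1% of the exonic bases of Tap2 are covered by the antisense gene Gm15821. Gm20496, also antisense, covers 6.83% of the exonic bases of Psmb8 and 4.36% of those of Tap2. Zbtb22, on the same strand, covers 1.85% of those of Tapbp. Of the 50-base stretches of the transcript, 8.87% of those of H2-K1 and 14.3% of those of H2-D1 also occur in other genes, mainly of the class I family. Values of H2-K1 and H2-D1 are uncertain to that extent, whereas B2m, Psmb8, Psmb9 and Psmb10 share no such stretch.

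RefSeq gives a promoter window, 250 bases before to 50 bases after the start site (GRCm38.p6), for 8 of the 10 genes. Stretches are shown of H2-K1 (chr17:34000349-34000463, minus strand), H2-D1 (chr17:35262918-35263032, plus) and B2m (chr2:122147543-122147648, plus). They were chosen because they carry, in the same arrangement, the cores of the X2 and Y boxes. These boxes are parts of the module through which Nlrc5 is known to act, and no other part of it was searched for. Capitals mark from left to right a kappaB site (H2-K1 and H2-D1, the same 10 bases in both) or an interferon response element (B2m, GAAA, any 2 bases, GAAA), then the core of the X2 box (TGACG) and that of the Y box (ATTGG).
H2-K1: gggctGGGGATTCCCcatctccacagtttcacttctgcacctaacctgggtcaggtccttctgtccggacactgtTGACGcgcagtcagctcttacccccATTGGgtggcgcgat
H2-D1: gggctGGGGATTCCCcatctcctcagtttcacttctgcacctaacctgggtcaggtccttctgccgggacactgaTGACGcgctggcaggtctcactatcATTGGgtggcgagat
B2m: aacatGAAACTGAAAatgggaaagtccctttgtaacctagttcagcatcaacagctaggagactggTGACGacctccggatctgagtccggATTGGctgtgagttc

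In all 3 genes 20 bases lay between TGACG and ATTGG. Searched on both strands, TGACG followed by ATTGG after 8 to 30 bases was found in 0.761% of 32851 promoter windows, and in none of the windows of Tap1, Tapbp, Psmb8, Psmb9 and Psmb10. These 10 bases of the kappaB site were found in 0.107% of windows and in none of the other 6 genes with a window. The strict letters of the interferon element (GAAA, any 2 bases, GAAA) were found in 3.44% of windows and, of the 8 genes, in B2m only. Looser forms of the element were not searched for. A window without these letters, such as those of H2-K1 and H2-D1, may therefore still hold such an element. The start sites of Tap1 and Psmb9 lie 226 bases apart on opposite strands, so their windows share 275 of 300 bases. The 1 TGACG of that stretch (20.8% of all windows hold this motif) is shown because the same bases stand before both genes, here on the plus strand (chr17:34187458-34187487, GRCm38.p6).
Tap1 and Psmb9: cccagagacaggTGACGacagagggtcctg

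Per length, B2m stood highest of the 10 genes in each of the 9 libraries, followed by H2-K1 and H2-D1. The light chain had 4781 RPKM (CPM per kilobase of the entry) in the library labelled Aire-KO and 5619 to 6278 RPKM in the 3 untreated WT mTEChi libraries, against 4161 RPKM in mTEClo, and ranked between 1 and 6 among all entries over the 9 libraries. H2-K1 had 1756 RPKM in the library labelled Aire-KO and 2366 to 2670 RPKM in untreated WT mTEChi, against 2010 RPKM in mTEClo. H2-D1 had 1220 RPKM in the library labelled Aire-KO and 1412 to 1614 RPKM in untreated WT mTEChi, against 1282 RPKM in mTEClo. B2m was thus 2.72 times as high per length as H2-K1 in the library labelled Aire-KO and 2.24 to 2.50 times in untreated WT mTEChi, against 2.07 times in mTEClo. The loading and proteasome genes were lower than all 3 chains in every library, at 463 RPKM or less. Psmb10 (158 to 176 RPKM), Psmb8 (112 to 165 RPKM), Tapbp (104 to 122 RPKM), Psmb9 (93.5 to 118 RPKM), Tap1 (64.7 to 88.7 RPKM) and Tap2 (55.7 to 95.1 RPKM) followed in untreated WT mTEChi. Neighbours in this order overlapped between the WT libraries, except that Psmb9 lay above Tap1 throughout. Nlrc5 was lowest, at 7.42 to 13.7 RPKM, below every other member.

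**Figure D1:**
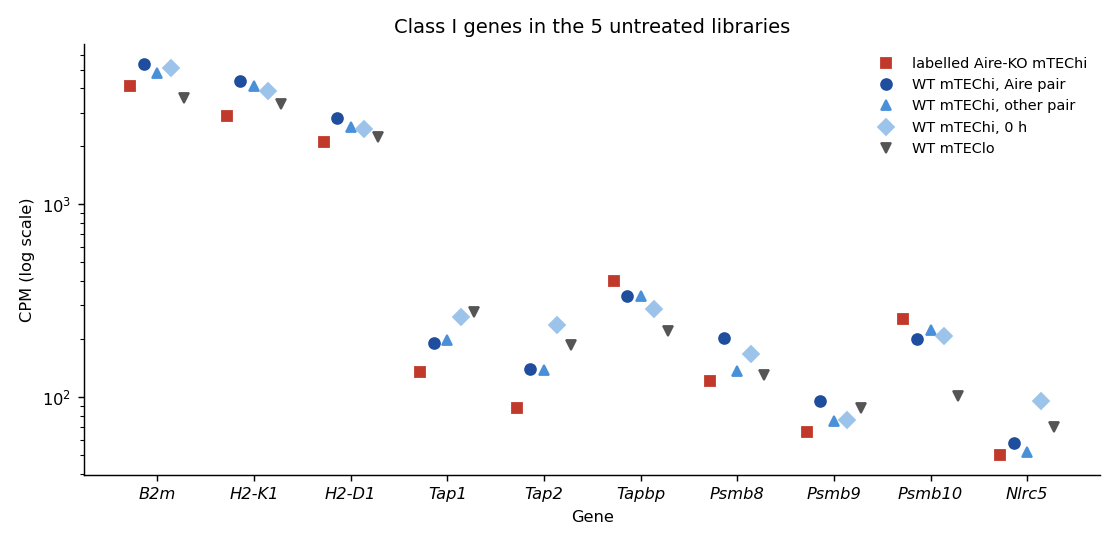
CPM (vertical axis, log scale) of the 10 genes in the 5 untreated libraries, 1 point per library. B2m, H2-K1 and H2-D1 sit at 2118 CPM or above in every library, Nlrc5 lies between 49.9 and 95.3 CPM, and Psmb10 is the gene for which mTEClo, at 100.8 CPM, lies farthest from WT mTEChi.

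Between the labelled Aire-KO and the WT mTEChi library of the same pair, none of the 10 genes differed by 2-fold. This comparison asks which genes need Aire in mTEChi, and of 26761 entries with at least 10 normalised counts over both libraries, 7.16% were at least 2-fold higher and 27.3% at least 2-fold lower in the library labelled Aire-KO. Of the 10 genes 0 were called in either direction, 7 were lower and 3 higher, and their median fold was 0.856, against 0.978 over all entries. Values are the authors' counts divided by a DESeq size factor, with 1 library a group, and the intervals cover counting error only.

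All 3 chains of the class I molecule were lower in the library labelled Aire-KO. H2-K1 had 382271 normalised counts in the library labelled Aire-KO, versus 495738 in WT, a fold of 0.771 (exact 95% interval 0.768 to 0.774). H2-D1 had 280057 normalised counts in the library labelled Aire-KO, versus 316124 in WT, a fold of 0.886 (0.881 to 0.890). For B2m the values were 542466 normalised counts in the library labelled Aire-KO, versus 607527 in WT, a fold of 0.893 (0.890 to 0.896). H2-K1 was thus set apart from its partners, and the ratio of H2-K1 to H2-D1 per length, which needs no scaling between libraries, was 1.44 in the library labelled Aire-KO, versus 1.65 in WT. In the other untreated WT mTEChi libraries that ratio was 1.73 and 1.68.

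The loading genes differed in direction. Both chains of the peptide transporter were lower in the library labelled Aire-KO, Tap1 at 17802 normalised counts, against 21515 in WT (fold 0.827, 0.811 to 0.844), and Tap2 at 11599, against 15701 in WT (fold 0.739, 0.721 to 0.757). Tapbp, the chaperone that bridges transporter and heavy chain, was higher, at 53151 normalised counts in the library labelled Aire-KO, versus 37531 in WT (fold 1.42, 1.40 to 1.44). Of 14 other genes of assembly and trimming in the endoplasmic reticulum and cytosol, 11 were higher in this pair, with a median log2 fold of 0.48, but against all 3 untreated WT mTEChi libraries the median log2 change of the same list was 0.07. Calr, the lectin chaperone calreticulin, had 1360 CPM in the library labelled Aire-KO, versus 1090 CPM in WT, and Hspa5, the general chaperone BiP, 1500 CPM, against 1090 CPM in WT. The other untreated WT mTEChi libraries stood above both, at 1710 and 1630 CPM for Calr and 2090 and 3480 CPM for Hspa5, so the direction of these genes rests on the 1 WT library of the pair. Only the peptidase Lap3 was past 2-fold, at 24.4 CPM in the library labelled Aire-KO, versus 58.9 CPM in WT (fold 0.486).

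Among the immunoproteasome subunits, Psmb8 had 16058 normalised counts in the library labelled Aire-KO, versus 22798 in WT (fold 0.704, 0.690 to 0.719), which was the lowest fold of the 10 genes. Psmb9 had 8691 normalised counts in the library labelled Aire-KO, versus 10717 in WT (fold 0.811, 0.788 to 0.834). Psmb10 went the other way, with 33592 normalised counts in the library labelled Aire-KO, versus 22606 in WT (fold 1.49, 1.46 to 1.51), the highest of the 10. The 3 subunits that they replace, Psmb5, Psmb6 and Psmb7, were all higher in the library labelled Aire-KO, with a median fold of 1.22. Nlrc5 had 6594 normalised counts in the library labelled Aire-KO, versus 6482 in WT, and the interval of its fold of 1.02 (0.983 to 1.05) held 1.

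**Figure D2:**
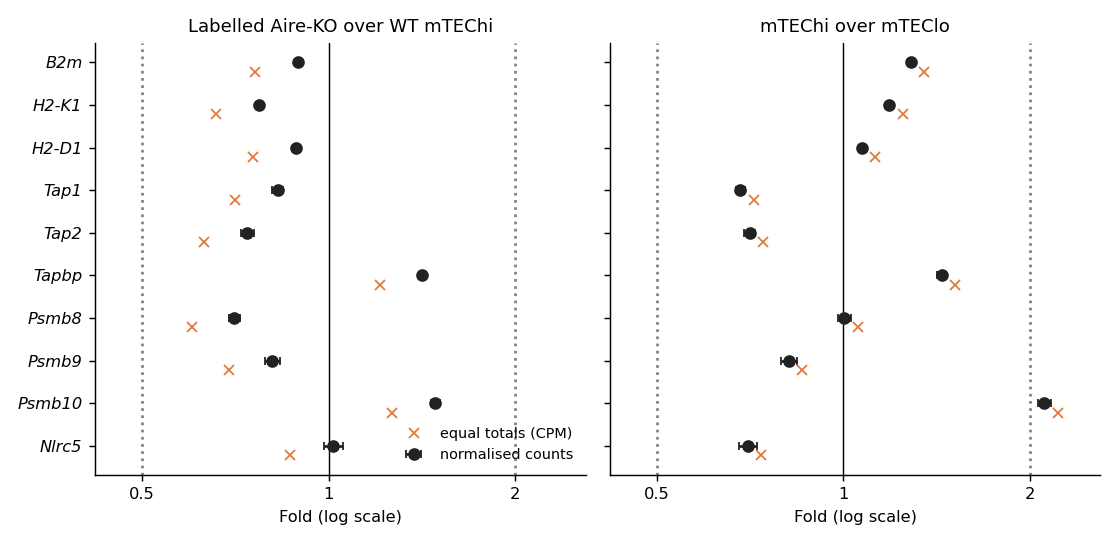
Fold (horizontal axis, log scale) of each gene in the library labelled Aire-KO over WT mTEChi, left, and in mTEChi over mTEClo, right. Filled points are deposited normalised counts with exact 95% counting intervals, crosses are folds by equal totals, and dotted lines mark 2-fold. Psmb10 in mTEChi over mTEClo, at 2.11, is the one point past a dotted line on the scale of normalised counts.

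These folds depended on the scale. Setting the totals of both libraries equal lowered every log2 fold of the pair by 0.23, so that the median over all entries was 0.834, and the 10 genes then ran between 0.601 (Psmb8) and 1.27 (Psmb10) with a median of 0.730. Nlrc5 turned to 0.868 (0.838 to 0.898). The 2 further untreated WT mTEChi libraries give a spread for comparison. By CPM, the library labelled Aire-KO lay below all 3 WT libraries for 8 of the 10 genes and above all 3 for Tapbp and Psmb10, whereas 46.7% of 24502 entries lay below and 11.1% above. After TMM scaling, 3 genes remained below (H2-K1, Tap1 and Tap2) and both Tapbp and Psmb10 above, and 5 lay within the WT range. On that scale 36.0% of all entries lay below and 24.1% above. Tapbp was at 402 CPM in the library labelled Aire-KO, versus 333, 334 and 286 CPM in WT. Tap2 was at 87.7 CPM in the library labelled Aire-KO, versus 139, 139 and 237 CPM in WT, where the 0 h library stood apart from the other two.

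In edgeR's quasi-likelihood test of the library labelled Aire-KO against the 3 untreated WT mTEChi libraries, 0.0878% of 23916 entries were higher and 8.64% lower at an adjusted p of 0.05 or less. None of the 10 genes was called, and none had an unadjusted p under 0.05, in edgeR or in DESeq2. The fit assumes that the lone library varies as the WT libraries do. The lowest adjusted p values of the 10 were those of Tapbp (log2 change 0.61 ± 0.42 SE, adjusted p = 0.549), Tap2 (-0.67 ± 0.51, adjusted p = 0.607) and Psmb10 (0.55 ± 0.42, adjusted p = 0.617). The standard errors, 0.32 to 0.51 on the log2 scale, are wider than most of the changes, so that differences of the size seen in the pair were not detectable in this design.

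Of 23 further class I molecules, 3 (13%, against 27.3% of all entries) were at least 2-fold lower in the library labelled Aire-KO and 0 higher, with a median fold of 0.735. H2-M11 had 0 reads in the library labelled Aire-KO, which allows up to 0.021 CPM, against 1.83 CPM in WT, and H2-M9 had 0 reads, against 0.604 CPM in WT. Both are of a class I group known from sensory neurons of the mouse vomeronasal organ, and both passed the edgeR test (adjusted p = 0.00958 for H2-M11 and 0.0157 for H2-M9), as 2 of 22 tested, close to the 8.64% of all entries. The other was Fcgrt, the neonatal Fc receptor, at 6.81 CPM in the library labelled Aire-KO, versus 22.7 CPM in WT. H2-Q6 and H2-Q8, and H2-Q7 and H2-Q9, are near-identical copies with equal counts in both pairs and cannot be told apart there. In the actinomycin D series H2-Q6 and H2-Q8 had unequal counts, at 734 and 267 CPM at 0 h. The files of the pairs and of that series thus did not treat these copies alike. Of 23 interferon-stimulated genes, 10 (43.5%, against 27.3% of all entries) were at least 2-fold lower in the library labelled Aire-KO and 0 higher, with a median fold of 0.559. Isg15, a ubiquitin-like modifier, had 16.0 CPM in the library labelled Aire-KO, versus 74.6 CPM in WT, and Irf7, a regulator of type I interferon genes, 33.3 CPM, against 137 CPM in WT. In the edgeR test 2 of 21 were lower, Rsad2 (adjusted p = 0.0252) and Oas2 (adjusted p = 0.0478), again close to the share of all entries. All 11 class II presentation genes were higher in the library labelled Aire-KO, and 0 of 10 passed the test. H2-Ob and Ciita, 2 of the 11 (18.2%, against 7.16% of all entries), were at least 2-fold higher. Ciita had 323 CPM in the library labelled Aire-KO, versus 177 CPM in its WT partner and 309 and 239 CPM in the other untreated WT mTEChi libraries. For H2-Ob the values were 141 CPM, versus 77.6 CPM and 94.0 and 73.5 CPM. Over the 2 libraries of the pair the dendritic and macrophage markers were lower for 15 of 15 genes, 14 of them at least 2-fold.

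Between mTEChi and mTEClo, Psmb10 alone of the 10 genes was at least 2-fold apart. The comparison asks what changes as mTEC mature, and of 29212 entries, 18.7% were at least 2-fold higher and 20.2% at least 2-fold lower in mTEChi. Of the 10 genes 6 were higher and 4 lower in mTEChi, with a median fold of 1.04, against 1.01 over all entries. Both sorts came from the same mice, and each is 1 library.

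Psmb10 had 26257 normalised counts in mTEChi, against 12444 in mTEClo, a fold of 2.11 (2.06 to 2.16), higher than that of 82.4% of entries. All 3 untreated WT mTEChi libraries, at 224, 200 and 208 CPM, lay above mTEClo, at 100.8 CPM. The other subunits of the immunoproteasome were less than 2-fold apart. Psmb8 had 16109 normalised counts in mTEChi, against 16043 in mTEClo, and the interval of its fold of 1.00 (0.981 to 1.03) held 1. Psmb9 had 8854 normalised counts in mTEChi, against 10846 in mTEClo (fold 0.816, 0.793 to 0.841). The value of Psmb8 rests on the mTEChi library used, since by CPM mTEClo lay below all 3 untreated WT mTEChi libraries, at 137, 202 and 167 CPM. By equal totals its log2 fold over mTEClo was 0.64 for the WT partner of the labelled Aire-KO library and 0.36 for 0 h. Differences between subunits were not tested. Their constitutive counterparts were higher in mTEChi for 3 of 3 genes, with a median fold of 1.23. Of 5 genes of proteasome activation and assembly 5 were higher, 2 of them (40.0%, against 18.7% of all entries) at least 2-fold. Those were Psme2, a subunit of the PA28 activator that interferon induces, at 107 CPM in mTEChi, against 40.5 CPM in mTEClo, and Psme3, a nuclear activator, at 115 CPM in mTEChi, against 46.0 CPM in mTEClo.

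The chains of the class I molecule were somewhat higher in mTEChi. B2m had 566272 normalised counts in mTEChi, against 440549 in mTEClo (fold 1.29, 1.28 to 1.29). H2-K1 had 484560 normalised counts in mTEChi, against 408360 in mTEClo (fold 1.19, 1.18 to 1.19), and H2-D1 294728, against 274727 in mTEClo (fold 1.07, 1.07 to 1.08). By CPM mTEClo lay below all 3 untreated WT mTEChi libraries for each of them. Tapbp was higher too, with 39283 normalised counts in mTEChi, against 27242 in mTEClo (fold 1.44, 1.42 to 1.47).

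The transporter and the transactivator were lower in mTEChi. Tap1 had 23278 normalised counts in mTEChi, against 34106 in mTEClo (fold 0.683, 0.671 to 0.694), the lowest fold of the 10. Tap2 had 16279 normalised counts in mTEChi, against 23032 in mTEClo (fold 0.707, 0.693 to 0.722). Nlrc5 had 6050 normalised counts in mTEChi, against 8613 in mTEClo (fold 0.702, 0.679 to 0.727). Only Tap1 kept this place against all WT mTEChi libraries, at 198, 191 and 262 CPM, against 276 CPM in mTEClo. For Tap2, Psmb9 and Nlrc5 the mTEClo value lay within the WT mTEChi range. Over the 10 genes mTEClo was below all 3 WT mTEChi libraries for 6, above for 1 and within for 3, against 36.4% of 25033 entries below and 27.6% above. By TMM the counts were 3 below (B2m, Tapbp and Psmb10), 1 above (Tap1) and 6 within, against 31.7% of all entries below and 31.7% above.

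In edgeR's quasi-likelihood test of the 3 WT mTEChi libraries against mTEClo, 1.92% of 24687 entries were higher and 1.45% lower in mTEChi. None of the 10 genes was called in edgeR or DESeq2, and none had an unadjusted p under 0.05 in either. Psmb10 came nearest (log2 change 0.92 ± 0.48 SE, adjusted p = 0.350), with an unadjusted p of 0.0927. Without the 0 h library the change of Psmb10 was 0.97 ± 0.37 (unadjusted p = 0.0323, adjusted p = 0.144). Without the mTEChi library of this pair edgeR called 0 entries of the whole table, with 1823 higher and 1650 lower at an unadjusted p under 0.05.

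Of the 23 interferon-stimulated genes, 15 (65.2%, against 20.2% of all entries) were at least 2-fold lower and 1 at least 2-fold higher in mTEChi, with a median fold of 0.324. Ifit3, an interferon-induced tetratricopeptide protein, had 27.1 CPM in mTEChi, against 315 CPM in mTEClo, and Oas2, which makes the activator of RNase L, 3.04 CPM, against 62.2 CPM in mTEClo. Both were lower in the edgeR test (adjusted p = 0.0371 each), as was Ifi44, so that 3 of 21 tested were called. Cxcl9, a chemokine induced by interferon gamma, was the one that was higher, at 212 CPM in mTEChi, against 41.6 CPM in mTEClo. Of 18 regulators of class I genes, 4 (22.2%, against 18.7% of all entries) were at least 2-fold higher and 2 (11.1%, against 20.2%) at least 2-fold lower, shares near or below those of all entries. Irf8 had 358 CPM in mTEChi, against 85.1 CPM in mTEClo, and Ciita 309 CPM, against 64.8 CPM in mTEClo. Stat2, a subunit of the factor that type I interferon activates, had 32.7 CPM in mTEChi, against 152 CPM in mTEClo, and passed the edgeR test (adjusted p = 0.0472). Its partner Irf9 had 50.2 CPM in mTEChi, against 174 CPM in mTEClo. Of 9 interferon receptors and kinases, 1 (11.1%, against 18.7% of all entries) was at least 2-fold higher and 3 (33.3%, against 20.2%) lower in mTEChi. The other class I molecules had a median fold of 1.16, with 3 of 23 at least 2-fold higher (H2-M9, H2-M11 and Cd1d1) and 1 lower (Fcgrt), both below the shares of all entries. Class II genes were at least 2-fold higher in mTEChi for 10 of 11, which the sort on class II had selected for. Beside these values, 8 of 8 endothelial and 6 of 9 fibroblast markers were at least 2-fold lower and 9 of 15 dendritic and macrophage markers at least 2-fold higher in mTEChi, and their part was not tested.

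Ratios within a library need no scaling between libraries, and in both pairs that of Psmb10 ran opposite to those of Psmb8 and Psmb9. Psmb9 over its constitutive counterpart Psmb6, per length, was 0.514 (0.502 to 0.527) in the library labelled Aire-KO, versus 0.870 in its WT partner and 0.828 and 0.747 in the other untreated WT mTEChi libraries. In mTEChi it was 0.828 (0.811 to 0.845), against 1.24 (1.20 to 1.28) in mTEClo. The lowest of these ratios over all 9 libraries was that of the library labelled Aire-KO and the highest that of mTEClo. Psmb8 over Psmb5 was 1.05 in the library labelled Aire-KO, versus 1.81, 1.22 and 1.45 in WT mTEChi, and 1.22 in mTEChi, against 1.49 in mTEClo. Psmb10 over Psmb7 ran the other way, at 1.80 in the library labelled Aire-KO, versus 1.39, 1.73 and 1.15 in WT mTEChi. It was 1.73 in mTEChi, against 1.34 in mTEClo. For the ratios of Psmb8 and Psmb10 the mTEClo value lay within the range of the untreated WT mTEChi libraries. Their direction against mTEClo thus rests on the mTEChi library of that pair. Nlrc5 over its class II relative Ciita was 0.117 in the library labelled Aire-KO, versus 0.245, 0.126 and 0.302 in WT mTEChi, and 0.126 in mTEChi, against 0.814 in mTEClo. Nlrc5 was below Ciita per length in each of the 9 libraries. The heavy chain H2-K1 over the class II chain H2-Aa was 0.270 in the library labelled Aire-KO, versus 0.494, 0.484 and 0.425 in WT mTEChi, and 0.484 in mTEChi, against 1.40 in mTEClo, the only library in which H2-K1 was the higher of the pair. These ratios are descriptions of single libraries, with no test.

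**Figure D3:**
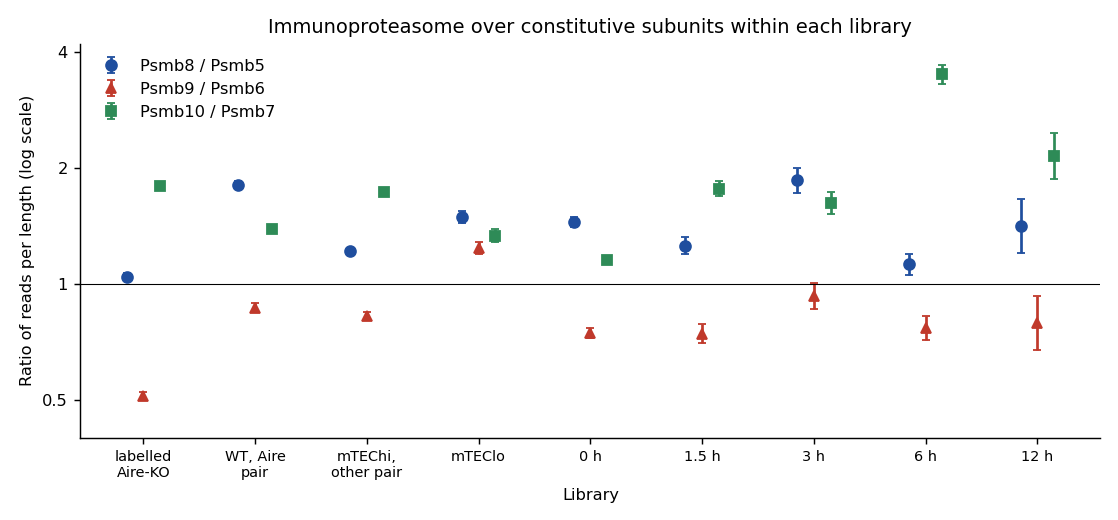
Reads per length of each immunoproteasome subunit over its constitutive counterpart (vertical axis, log scale) in the 9 libraries, with exact 95% counting intervals. Psmb9 over Psmb6 is lowest in the library labelled Aire-KO (0.514) and above 1 only in mTEClo (1.24), and Psmb10 over Psmb7 is highest at 6 h of actinomycin D (3.51).

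Under actinomycin D none of the 10 genes lost as much as 2-fold of its share of the reads. This series asks how stable transcripts are once transcription is blocked. CPM are shares of a library, so a higher value says nothing of the absolute amount. At 1.5 h, 1.75% of 23850 entries were at least 2-fold higher and 5.28% at least 2-fold lower than at 0 h. At 3 h the shares were 8.33% and 21.9%, at 6 h 12.5% and 40.4%, and at 12 h 11.6% and 40.7%. Of the 10 genes 0 were at least 2-fold lower at any of the 4 times. At least 2-fold higher were 0 at 1.5 h, 1 at 3 h (Nlrc5), 1 at 6 h (Psmb10) and 1 at 12 h (Psmb10). Their median log2 change was 0.21, 0.16, 0.36 and 0.29 at 1.5, 3, 6 and 12 h, against -0.13, -0.18, -0.54 and -0.60 over all entries. That background includes weakly counted entries, whereas the 10 genes had reads in every library. Of 25537 entries counted, 2.71% had 0 reads at 0 h, against 31.5% at 6 h and 26.9% at 12 h. The part of depth in the background values was not tested. At 12 h the number at least 2-fold higher was 2 with TMM and 3 with DESeq2 size factors. With these scalings the median log2 change of all entries at 12 h was higher too, at -0.40 and -0.31. The share of all entries past 2-fold under them is not given here.

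B2m had 5078 CPM at 0 h and 5429, 5056, 8047 and 8333 CPM at 1.5, 3, 6 and 12 h. It was flat up to 3 h and 1.64-fold (1.61 to 1.67) above 0 h at 12 h. H2-K1 had 3894 CPM at 0 h and 4509, 4586, 5244 and 4420 CPM thereafter, and H2-D1 had 2450 CPM at 0 h and 2922, 2919, 3137 and 3238 CPM. Both heavy chains stayed within 1.13 to 1.35 times their 0 h value. The ratio of B2m to H2-K1 per length was 2.50 at 0 h and 2.31, 2.12, 2.94 and 3.62 at 1.5, 3, 6 and 12 h.

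The subunits of the immunoproteasome were at their highest late. Psmb8 had 167 CPM at 0 h and 192, 181, 213 and 267 CPM at 1.5, 3, 6 and 12 h. Psmb9 had 75.7 CPM at 0 h and 86.7, 79.9, 104 and 143 CPM, and at 12 h was 1.89-fold (1.66 to 2.15) above 0 h on 250 reads. Psmb10 had 208 CPM at 0 h and 318, 203, 588 and 464 CPM, which made it 2.82-fold (2.74 to 2.90) above 0 h at 6 h and 2.23-fold (2.07 to 2.39) at 12 h. The value of Psmb10 at 3 h lay below those at 1.5 h and 6 h, so that its course was not steady.

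The loading genes and Nlrc5 behaved differently. Tap1 had 262 CPM at 0 h and 252, 235, 175 and 182 CPM at 1.5, 3, 6 and 12 h, and followed the median entry. Tap2 had 237 CPM at 0 h and 248, 273, 262 and 174 CPM, with the low value in the 12 h library alone. In consequence Tap1 over Tap2 per length was 0.933 at 0 h and 0.857, 0.727, 0.564 and 0.880 at the later times. Tapbp had 286 CPM at 0 h and 385, 335, 271 and 246 CPM, highest at 1.5 h. Nlrc5 had 95.3 CPM at 0 h and 138, 213, 114 and 91.6 CPM, with a peak at 3 h (2.23-fold, 2.14 to 2.33) and a 12 h value that did not differ from 0 h by counting error (0.962-fold, 0.817 to 1.12, 160 reads).

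**Figure D4:**
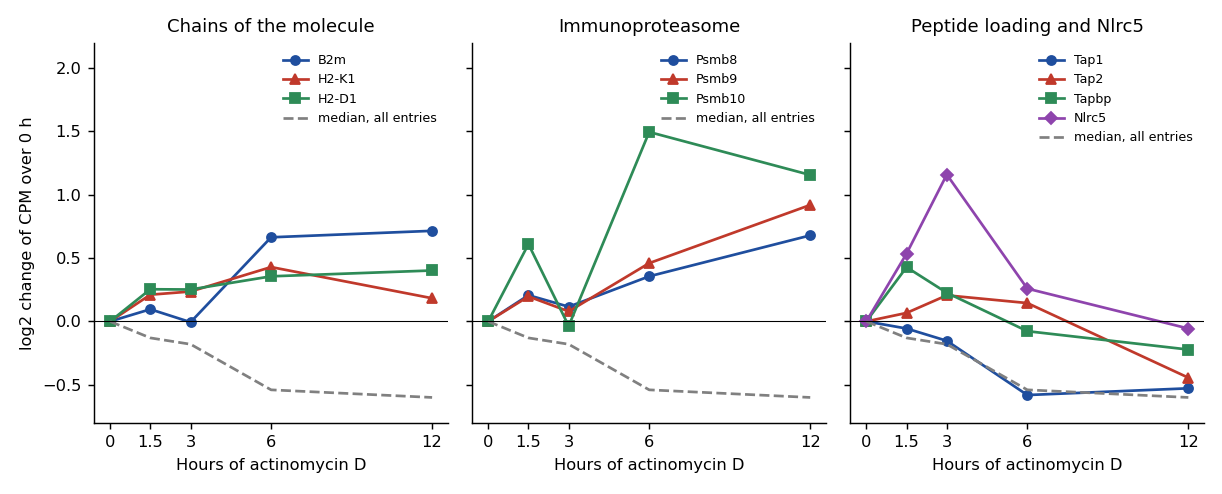
log2 change of CPM over 0 h (vertical axis) against hours of actinomycin D for the 10 genes, in panels by role, with the median of 23850 entries as a dashed line. The chains of the molecule and the immunoproteasome lie above the dashed line at every time, while Tap1 follows it, with -0.58 at 6 h.

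The 4 treated libraries share a kit and can be compared among themselves. From 1.5 h to 12 h, 11.5% of entries were at least 2-fold higher and 36.1% at least 2-fold lower, with a median log2 change of -0.43, and of the 10 genes 0 were called. Psmb9 (1.65-fold), B2m (1.54-fold), Psmb10 (1.46-fold), Psmb8 (1.39-fold) and H2-D1 (1.11-fold) were higher at 12 h. Tapbp (0.638-fold), Nlrc5 (0.664-fold), Tap2 (0.702-fold) and Tap1 (0.721-fold) were lower at 12 h, and H2-K1 was level (0.980-fold, 0.958 to 1.00). A slope over hours in these 4 libraries, tested by edgeR with 2 residual degrees of freedom, was called for 0% of 20652 entries upward and 0% downward, with 661 upward and 1235 downward at an unadjusted p under 0.05 and none of the 10 genes among them. B2m came nearest (log2 change 0.08 ± 0.04 SE per hour, adjusted p = 0.572). DESeq2 called 268 slopes upward and 147 downward, and of the 10 genes only B2m, upward (0.09 ± 0.03 per hour, adjusted p = 0.0163).

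Other lists give the measure of these courses. At 12 h against 0 h, all entries had a median log2 change of -0.60, with 11.6% at least 2-fold higher and 40.7% at least 2-fold lower. The median was 0.93 for 10 class II genes, with 5 at least 2-fold higher, and 0.72 for 3 constitutive proteasome subunits. It was -0.25 for 14 genes of assembly and trimming. For 21 interferon-stimulated genes it was -0.31, with 6 at least 2-fold lower, a smaller share than that of all entries. Of 22 other class I molecules, 0, 1, 3 and 1 were at least 2-fold lower at 1.5, 3, 6 and 12 h. Of all entries, 5.28%, 21.9%, 40.4% and 40.7% were. At least 2-fold higher were 0, 4, 2 and 1 of them, against 1.75%, 8.33%, 12.5% and 11.6% of all entries. Their median log2 change was 0.13 at 12 h. H2-M11, at 2.14 CPM at 0 h, had 0 reads at 6 and 12 h, and Hfe, at 7.79 CPM at 0 h, had 0 reads at 6 h and 9.16 CPM at 12 h. Markers of other cells differed with time as well. The summed level of 15 dendritic and macrophage markers was 294 CPM at 0 h and 412, 423, 597 and 804 CPM at 1.5, 3, 6 and 12 h, and that of 12 thymocyte markers 53.9 CPM at 0 h and 55.8, 50.5, 127 and 203 CPM. Their part in the late values of B2m and the proteasome subunits was not tested.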

How the data were processed

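RNA of mTEC was sequenced in 9 libraries of 9 groups, 1 each. Per the labels and the study's methods, the authors aligned reads to mm9 (Bowtie 1.0.0 and bedtools are named) and counted them per RefSeq entry without strand. For the actinomycin D series the authors deposited raw counts. For both pairs the deposited values are a normalised signal, counts divided by 1 DESeq size factor per library, with the entry length (other) beside them in the deposited Aire pair table, where 0 columns went unmatched. In the Aire pair table no column is named for a sample, and each was matched to its library by how the study's code uses their ratio. Columns of fold changes and p-values hold the authors' comparisons and were not used.

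Whole reads were recovered from the normalised values of the pairs (100% of values within 0.1 of a whole number) and entered the count tests. Folds carry exact 95% conditional binomial intervals, which cover counting error only, since reads without molecular identifiers are not independent molecules. A fold of 2 was called among entries with 10 normalised counts over a pair. Actinomycin D values are CPM with 0.5 reads added, for entries with 10 reads over 5 libraries. A gene at 0 reads was read against a floor of 3 reads. edgeR 4.0.16 (quasi-likelihood, TMM, filterByExpr, Benjamini-Hochberg) tested each lone library against 3 untreated WT mTEChi libraries, and a slope over hours. These 3 libraries come from different experiments, and p-values measure the spread between them. DESeq2 1.42.0, other scalings, filters, folds, partner libraries and left-out libraries were the alternatives. The edgeR step was also run on simulated counts. The changes planted there were larger than those of the 10 genes, so that run does not show how changes of their size are detected. Promoter windows are from RefSeq (GRCm38.p6).

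The genes and lists were chosen with earlier results of these data known. All 10 genes are named. Of the other lists, genes at least 3-fold apart in a pair or highest in their list could be named, up to 4 a list. Genes named beside a count of 5 or fewer were chosen after their values were seen.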

Additional observations from a re-analysis of the deposited data

How the results depend on the processing

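No paired analysis was possible because the groups compared share fewer than 2 replicate numbers. Each pair is 1 library a group, and the 12 h library, with 1746825 reads, limits the latest values most. None of the 10 genes was called by edgeR under any alternative. Setting the library labelled Aire-KO against the 0 h library by equal totals put 1 gene (Tap2, -1.43 on the log2 scale) at least 2-fold lower. Psmb10 no longer passed 2-fold (0 genes) with the WT mTEChi library of the Aire pair over mTEClo, nor at a threshold of 3-fold. At 12 h of actinomycin D, 2 genes were at least 2-fold higher with TMM and 3 with DESeq2 size factors. These scalings raised the log2 change of all entries as well, by a median of 0.20 and 0.29. DESeq2 called 1 upward slope (B2m). The causes were not tested.

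The log2 change turned its sign for genes near 0. Against the 3 WT libraries it was 0.09 for H2-D1, 0.07 for B2m and 0.06 for Psmb9, both in DESeq2 and with its size factors in edgeR. With 1 WT library left out it ranged between -0.34 and 0.02 for H2-K1, -0.11 and 0.26 for H2-D1, -0.10 and 0.22 for B2m, -0.27 and 0.18 for Psmb8, and -0.16 and 0.29 for Psmb9, lowest without 0 h and highest without the WT library of the Aire pair. For Nlrc5 it ranged between -0.12 without the other WT mTEChi library and 0.09 without 0 h. Without that other WT library it was also above 0 for H2-D1 (0.15), B2m (0.12) and Psmb9 (0.08). Against mTEClo it was -0.04 for H2-D1 without the WT library of the Aire pair. The slope was -0.003 for H2-K1 by total counts and 0.002 for Tap2 without 12 h, against -0.062 without 1.5 h. Counts over all entries moved more. For the library labelled Aire-KO, edgeR called 21 higher and 2066 lower, DESeq2 81 and 3738, and edgeR without 0 h 103 and 2903. For WT mTEChi against mTEClo, edgeR called 475 higher and 357 lower, DESeq2 1824 and 973, edgeR without 0 h 1834 and 1211, and edgeR without the mTEChi library of that pair 0 and 0, with 1823 and 1650 at an unadjusted p under 0.05. For the slope, edgeR called 0 in either direction, DESeq2 268 upward and 147 downward, edgeR without 6 h 718 and 1156, and without 12 h 87 and 518.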
